A study of Spirodela polyrhiza with 4 samples.

Results

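The regions described here are the long stretches of the *Spirodela polyrhiza* line 9509 genome in which no H3K9me2 peak was called. They are the gaps of 50 kb or more between neighbouring peaks on a chromosome, and there were 786 of them among 5706 gaps between 5726 peaks. They were chosen by the positions of the peaks alone, as the start of the next peak minus the end of the previous one, so their length and their lack of peaks are a description and were not tested. Sequence before the first and after the last peak of a chromosome was left out. The authors called these peaks with MACS2 on 1 ChIP-seq library, in which an antibody against H3K9me2 was used on 1 g of whole plantlets of this clonally grown duckweed, for which no treatment is given. The series also holds an input library of line 9509 and bisulfite libraries of lines 9509 and 7498, which were not analysed here. With 1 library there is no error between plants, and the SD values below describe the spread over the 20 chromosomes.

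Dimethylation of lysine 9 of histone H3 (H3K9me2) is a mark of silent heterochromatin in plants. It is laid over transposons and other repeats, and it is tied to DNA methylation in the CHG context through the methyltransferase CMT3, which binds the mark. Chromosome arms rich in genes usually carry little of it, whereas the sequence around centromeres usually carries much of it. A gap as defined here is sequence without a called peak. Reads with several places in the genome were discarded by the authors, so H3K9me2 over near-identical repeats, and sequence that reads cannot reach, can also lie in a gap. The part of such sequence in the gaps was not tested. Genes, repeats and base composition of the gaps were not analysed here, and no sequence of them is shown.

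Most of the genome between peaks lay in few, long gaps. The 786 long gaps were 13.8% of all gaps and held 73.3% of the summed gap length. They added up to 90.5 Mb, which is 66.0% of the 137 Mb between the first and the last peaks of the 20 chromosomes. The 4920 gaps under 50 kb made up 24.1% of this sequence with 33.0 Mb, and the peaks themselves 9.89% with 13.6 Mb. The median long gap measured 88436 bp (quartiles 66272 and 134195 bp), and the longest 665462 bp. The shorter gaps had a median of 1532 bp (quartiles 546 and 6950 bp), and the shortest was 285 bp. In length classes of equal width on the log scale, gaps were most numerous at the short end, with 701 in 1 class. Longer classes up to 70.7 kb held fewer, with 255 gaps of 6.25 to 8.84 kb, 196 of 12.5 to 17.7 kb and 249 of 50 to 70.7 kb. The summed length was highest in the 158 gaps of 100 to 141 kb, with 18.7 Mb.

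**Figure D1:**
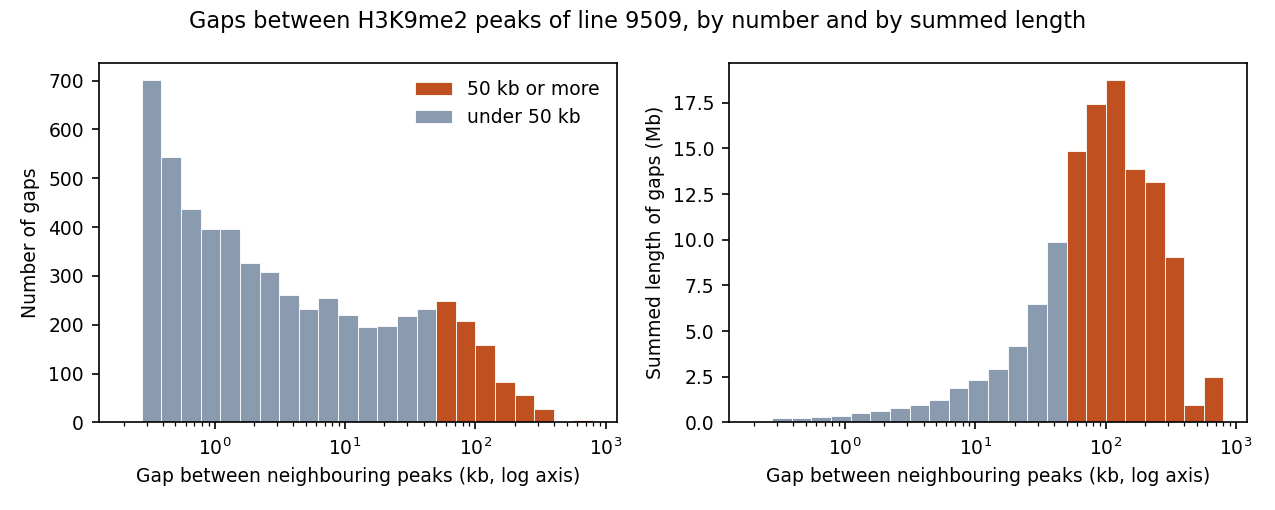
Number (left) and summed length in Mb (right) of all 5706 gaps between neighbouring H3K9me2 peaks, by gap length in kb on a log axis, with gaps of 50 kb or more in orange and shorter ones in grey. The shorter gaps are the more numerous (4920 against 786), while the long gaps hold 90.5 of the 123.5 Mb of gap sequence.

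The limit of 50 kb fell within a continuous range of lengths. The shortest long gaps were 50022 bp on chromosome 11 (6669729–6719750), 50096 bp on chromosome 19 (1268989–1319084) and 50162 bp on chromosome 18 (4034294–4084455). The longest gaps that fell short of it were 49939 bp on chromosome 13 (4908172–4958110), 49927 bp on chromosome 7 (4023308–4073234) and 49926 bp on chromosome 10 (5787264–5837189). Among the long gaps, 129 were under 60 kb, 151 were 60 to 75 kb, 177 were 75 to 100 kb and 166 were 100 to 150 kb long. A further 74 were 150 to 200 kb long. The 89 gaps of 200 kb or more were 11.3% of the long gaps and held 28.3% of their length. The 214 longest, each of at least 127 kb, held 50% of the length.

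The longest gap of the genome lay on chromosome 1 (7164984–7830445) and was 665462 bp long. The next were 638841 bp on chromosome 11 (838227–1477067), 592431 bp on chromosome 4 (3632660–4225090) and 589507 bp on chromosome 2 (3904121–4493627). These 4 were the only gaps of over 500 kb. The fifth, on chromosome 13 (737677–1226709), had 489033 bp and the sixth, on chromosome 8 (6537200–7003779), had 466580 bp. The remaining 4 of the 10 longest were close to each other in length. They were 396248 bp on chromosome 4 (2978935–3375182), 388686 bp on chromosome 1 (10038928–10427613), 387481 bp on chromosome 4 (35967–423447) and 380906 bp on chromosome 2 (2000611–2381516). Together the 10 longest spanned 4.995 Mb, which is 5.52% of the length of all long gaps.

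The peaks at the edges of the longest gaps were of mixed strength. Fold enrichment is the authors' MACS2 value for the pileup in a peak over the estimated background, and its median over all peaks was 2.07. Of the 20 edges of the 10 longest gaps, 10 were below this median. The longest gap was bordered by a peak of 528 bp with a fold enrichment of 1.71 at its start and by one of 1714 bp with 2.27 at its end. That of chromosome 11 had peaks of 1670 bp (fold enrichment 2.33) and 1229 bp (1.87) at its edges, and that of chromosome 4 had peaks of 706 bp (1.73) and 5446 bp (2.16). The most enriched edge among the 10 belonged to the gap of chromosome 2 from 3904121, which ended at a peak of 7868 bp with a fold enrichment of 3.47. Next came the gap of chromosome 8, which began after a peak of 4223 bp with 3.10. Of the 10 gaps, 4 had both edges at peaks with a q under 0.01, a stricter limit than that of the list, whose weakest peak had a −log10 q of 1.03.

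Every chromosome had long gaps, with 20 on chromosome 20 to 67 on chromosome 1. They took up a mean of 64.2% of a chromosome (SD 8.81, n = 20 chromosomes). The highest percents were 77.0% on chromosome 1, 76.0% on chromosome 4 and 74.1% on chromosome 8. The lowest were 45.5% on chromosome 17 and 45.7% on chromosome 15, followed by 55.3% on chromosome 14. Their number per Mb varied less, from 4.49 on chromosome 2 to 6.82 on chromosome 11 (mean 5.69, SD 0.560). Chromosome 2 thus had the fewest per Mb but 72.3% of its sequence in them, with a median length of 108125 bp over 35 gaps. The median length was highest on chromosome 1 with 112 kb and lowest on chromosome 6 with 78.2 kb. The longest gap of a chromosome ranged from 166803 bp on chromosome 15 (2661309–2828111) to the 665462 bp of chromosome 1, with a median of 344 kb. Gaps of 200 kb or more were found on 18 chromosomes, with 10 each on chromosomes 1, 2 and 4 and none on chromosomes 15 and 17. Those of 300 kb or more numbered 25 and lay on 11 chromosomes.

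Larger chromosomes had more of their sequence in long gaps. Over the 20 chromosomes, the Spearman correlation of the percent in long gaps with the length between the first and last peaks was 0.74, and that of the median gap length with this length was 0.098. The percent in long gaps ran against the percent in peaks, with a Spearman correlation of −0.80. These are descriptions over chromosomes of 1 library, and both percents come from the same peaks. Chromosome 10 departed from this order: with 13.3% it had the most sequence in peaks, yet 62.5% of it lay in long gaps, close to chromosome 6 (62.6%) with 10.3% in peaks. Chromosome 20, with 62.7% in long gaps, had 8.97% in peaks.

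**Figure D2:**
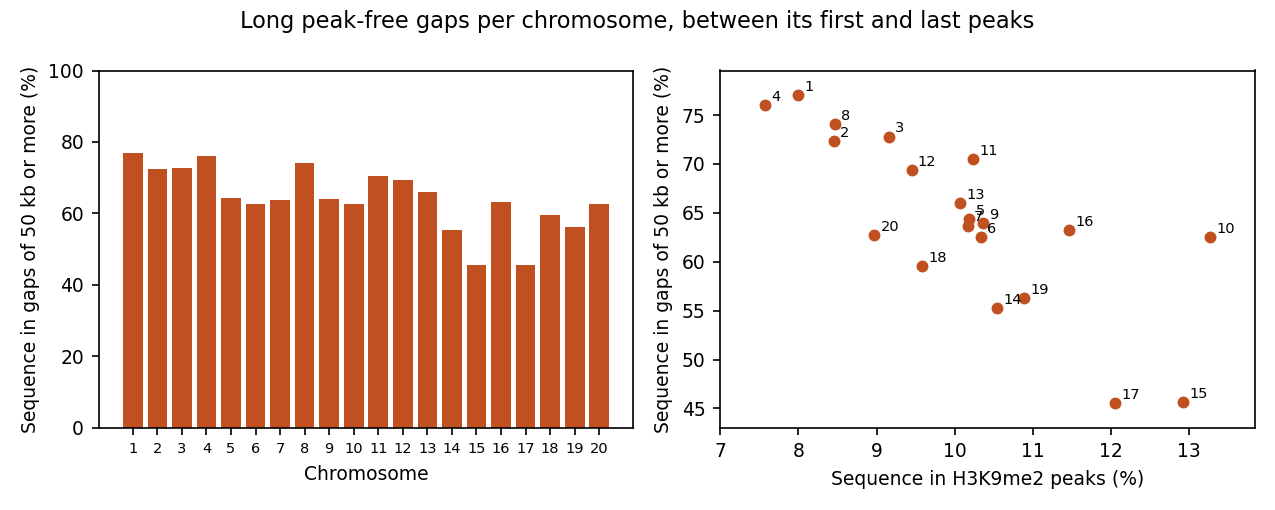
Percent of the sequence between the first and last peaks of each chromosome that lies in gaps of 50 kb or more, by chromosome (left) and against the percent in H3K9me2 peaks (right, 1 point per chromosome with its number; this vertical axis does not start at 0). The percents run from 45.5% on chromosome 17 to 77.0% on chromosome 1, and chromosome 10 lies above chromosomes 15 and 17 despite the most sequence in peaks.

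The long gaps thinned out toward the most densely marked part of each chromosome. As a landmark, the 500 kb most covered by peaks was located on each chromosome in windows of 50 kb. The 20 landmarks were chosen by the same peaks that bound the gaps, so little gap sequence inside them follows from the choice. Long gaps took up 11.6% of the sequence within the landmarks and 70.3% of the rest. On 15 chromosomes a long gap reached into the landmark, 12 had at least 1 whole long gap inside it, and 15 whole gaps lay inside in all. On chromosomes 3, 4, 8, 16 and 19 no long gap touched it. Chromosome 11 had the most, with 137 kb of its densest 500 kb, from 2750001 to 3250000, in 2 whole gaps.

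Outside the landmarks the percent in long gaps was higher at greater distance, up to 4 Mb. At 0.25 to 0.5 Mb from the centre it had a mean of 36.9% (SD 20.7, n = 20 chromosomes), at 0.5 to 1 Mb of 48.5% (SD 13.8) and at 1 to 2 Mb of 66.3% (SD 6.60). At 2 to 3 Mb the mean was 76.7% (SD 14.2) and at 3 to 4 Mb it was 85.2% (SD 10.9, n = 19). Beyond 4 Mb, which 12 chromosomes reached, it was 81.1% (SD 12.2). The spread between chromosomes was smallest at 1 to 2 Mb, where the values ran from 55.0% to 78.1%. On 18 of 20 chromosomes the percent was higher at 2 to 3 Mb than at 0.5 to 1 Mb. The exceptions were the short chromosomes 17 (43.6% at 2 to 3 Mb and 47.5% at 0.5 to 1 Mb) and 19 (44.0% and 58.6%). The largest such difference was on chromosome 8, whose landmark begins at position 1, with 91.7% at 2 to 3 Mb and 32.4% at 0.5 to 1 Mb. Chromosome 5 followed with 90.4% and 31.8%. The percent of sequence in peaks had the opposite order, with 5.69% at 2 to 3 Mb and 13.1% at 0.5 to 1 Mb. This is not a separate observation, since the landmarks, the gaps and both percents come from the same peaks. Sequence beside a stretch chosen for its peaks can be rich in peaks through that choice. How far the trend with distance follows from the choice was not tested.

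**Figure D3:**
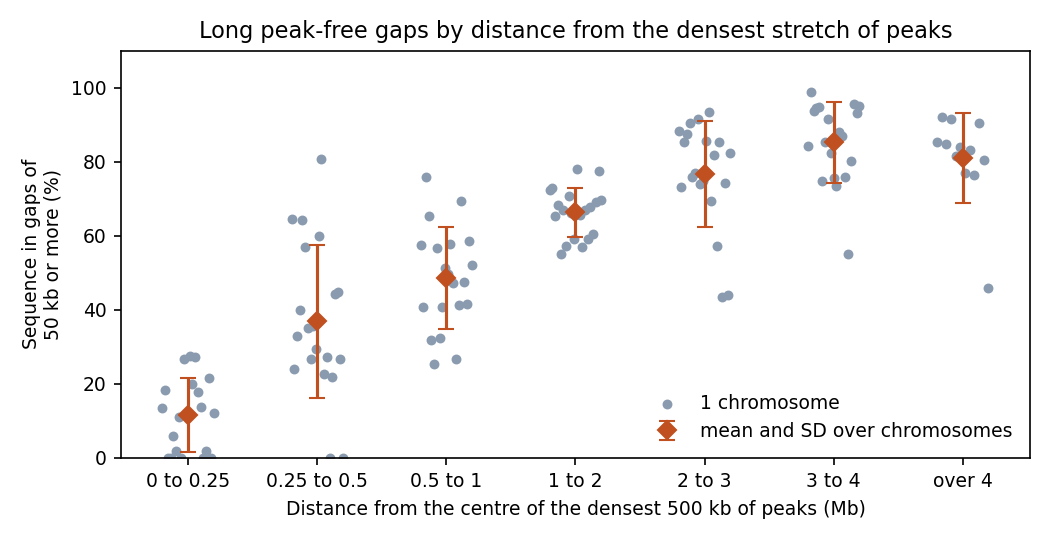
Percent of sequence in gaps of 50 kb or more by distance in Mb from the centre of the 500 kb most covered by H3K9me2 peaks, both directions together; grey points are chromosomes and orange diamonds with bars are the mean and SD over chromosomes (n = 20, with 19 at 3 to 4 Mb and 12 over 4 Mb). The mean is 11.6% at 0 to 0.25 Mb, 66.3% at 1 to 2 Mb and 85.2% at 3 to 4 Mb.

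The long gaps were unevenly divided between the sides of a chromosome. On all 20 chromosomes the side of the midpoint that holds the landmark's centre had less sequence in long gaps than the opposite side. The landmarks were chosen by the same peaks that bound the gaps, so this count follows in part from the choice. The means were 51.6% (SD 10.97) on the side with the landmark and 76.8% (SD 12.2) on the opposite side. With the landmarks themselves left out, the side that holds the landmark had a mean of 58.8% (SD 11.4), and it had less than the opposite side on 17 of 20 chromosomes, the exceptions being 6, 11 and 17. With the landmarks included, the difference between the sides was largest on chromosomes 20 and 14. On chromosome 20, 36.3% of the side with the landmark and 89.0% of the opposite side lay in long gaps, and on chromosome 14 29.9% and 80.7%. It was smallest on chromosome 11, with 69.5% and 71.5%. As the numbering of the sequences runs, the landmark lay past the midpoint on 14 chromosomes, and on these 14 the long gaps were more extensive before the midpoint. Over all 20 chromosomes, long gaps took up a mean of 73.2% (SD 13.8) before the midpoint and of 55.2% (SD 15.5) past it. In bins of 10% of the length, they took up 78.3%, 77.3%, 77.9% and 74.1% of the first 4 bins. The remaining 6 bins had between 52.6% and 62.9%. Chromosomes differed widely within a bin, with an SD of 15.8 to 30.7.

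Long gaps were not gathered in the middle of the chromosomes. Of the 786, 392 (49.9%, SD over chromosomes 8.54) had their midpoint between 25% and 75% of the way along, compared with 56.9% of all gaps. The 49.9% is close to the share of the length that this range covers. On 8 of the 20 chromosomes the longest gap had its midpoint in this range. The longest of chromosome 10, of 279 kb, had its midpoint at 93.2% of the way, and those of chromosomes 18 (268 kb) and 17 (198 kb) at 5.94% and 6.21%. Near the ends, 147 long gaps had their midpoint in the outermost 10% on either side. Long gaps were 19.6% of the 382 gaps in the first 10% and 12.2% of the 590 in the last, compared with 13.8% of all gaps. The first gap of the chromosome was a long one on 6 chromosomes and the last one on 2. On 13 chromosomes at least 1 of the first 3 gaps was long. Whether these counts differ from what the shares of long gaps above would give was not tested. The shortest long gap of the genome lay near the other end, at 99.3% of the way along chromosome 11.

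Between neighbouring long gaps the peaks formed 766 islands, most of them small. A median island held 3 peaks and spanned 18.1 kb, and 531 of the islands were shorter than 50 kb, less than any of the gaps around them. Those of 1 to 5 peaks numbered 537 (70.1%) and held 20.5% of the peak length of the genome in 8.90 Mb. At the other extreme, 51 islands with over 20 peaks held 2227 peaks, or 38.9% of all, and 42.5% of the peak length. They were present on all 20 chromosomes and spanned 17.9 Mb, of which 32.3% was covered by peaks. The islands of 1 to 5 peaks were 31.2% covered, a value that includes the islands of 1 peak, which are covered throughout. The largest island by number lay on chromosome 3 (6276344–7013361) with 120 peaks over 737018 bp, of which 48.7% was covered, and had long gaps of 80334 bp before and 101212 bp after it. Chromosomes 4 and 16 had islands of 107 peaks, from 6624424 to 7304353, and 105 peaks, from 3081062 to 3961566. The island of chromosome 16 was the longest, with 880505 bp, and 30.0% of it was covered.

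**Figure D4:**
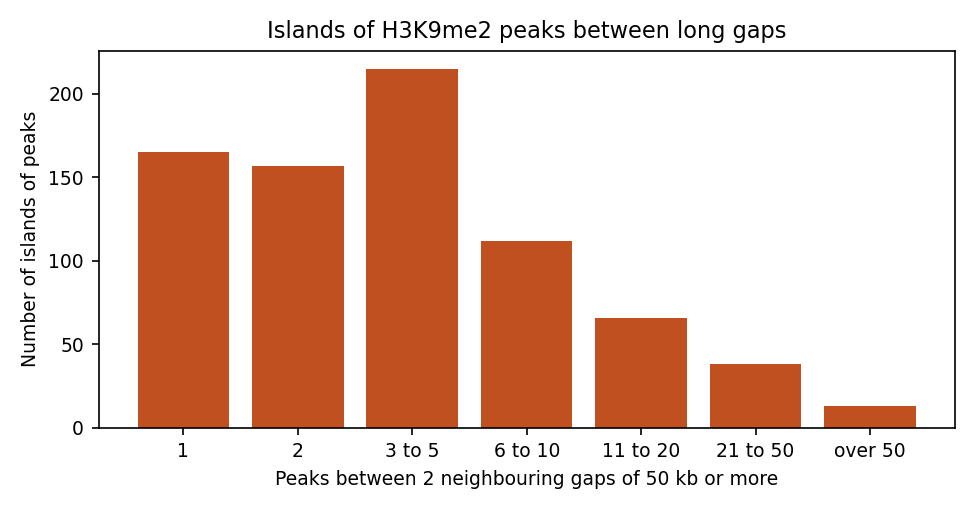
Number of islands of H3K9me2 peaks between neighbouring gaps of 50 kb or more, by the number of peaks in the island (all 766 islands). Islands of 1 peak (165), 2 peaks (157) and 3 to 5 peaks (215) make up most of them, and 13 hold over 50 peaks.

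Some long gaps were separated from the next by a single peak. In 165 islands there was only 1 peak, with a long gap on both sides, and these lone peaks joined 289 long gaps (36.8%) into 124 runs. The 165 were 21.5% of the 766 islands, while long gaps were 13.8% of all gaps. Whether the counts of lone peaks and runs differ from what this share would give was not tested. Most runs were short, with 93 of 2 gaps, 24 of 3, 4 of 4 and 3 of 5 gaps. The longest runs by number, of 5 gaps and 4 lone peaks, lay on chromosome 5 (1608302–2334657), on chromosome 9 (6504689–7063800) and on chromosome 19 (146084–524867). They differed in their peaks. The run of chromosome 5, of 726356 bp with gaps of 72278 to 242335 bp, was interrupted by peaks of 2434, 8323, 5205 and 4148 bp with fold enrichments of 2.59, 2.58, 2.81 and 3.41. In the run of chromosome 19, of 378784 bp with gaps of 50707 to 121588 bp, they were short and weak, with 1185, 542, 510 and 457 bp and fold enrichments of 1.99, 1.72, 1.66 and 1.59. The run of chromosome 9, of 559112 bp with gaps of 56833 to 172338 bp, had 3 peaks of 593 to 1705 bp with a fold enrichment of at most 1.93 and 1 of 4283 bp with 2.89. By length, the longest run was that of chromosome 2 from 3644595 to 4493627, where 849033 bp held a single peak of 2819 bp, or 0.332% of the run.

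The most isolated peak of the genome was the one in that run (3901302–3904120) with a fold enrichment of 1.94, which had 256707 bp before and 589507 bp after it without a peak. The next by the smaller of their gaps was a peak of 328 bp on chromosome 6 (7866269–7866596), with a fold enrichment of 1.63 and gaps of 347247 and 231801 bp. Those on chromosome 2 (1790619–1796962) and on chromosome 3 (2696841–2698482) had a fold enrichment of 2.11 and 2.07 and smaller gaps of 198 and 197 kb. The fifth lay in the same run as the second, on chromosome 6 (8098398–8101914), and reached 2.58 with a smaller gap of 187 kb. The 165 lone peaks as a set were not the shortest of the genome. Their median length was 1326 bp (quartiles 548 and 3837 bp), compared with 1225 bp over all peaks, while their median fold enrichment was 1.94, compared with 2.07. Of the lone peaks, 55 (33.3%) had a q of 0.01 or more, and 27 (16.4%) were at least 5000 bp long. Among the 4319 peaks that bordered no long gap, these shares were 23.7% and 13.2%.

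The 786 long gaps were bordered by 1407 peaks, which is fewer than 2 for each gap because of the lone peaks. These bordering peaks were less enriched than the 4319 others, with a median fold enrichment of 1.99 (quartiles 1.80 and 2.46) compared with 2.10 (quartiles 1.82 and 2.70). The difference of the medians was −0.11, or −0.061 with a minimum gap of 100 kb, and within chromosomes it averaged −0.10 (SD 0.095, n = 20), so it was about as large as its spread over chromosomes. The bordering peaks had the lower median on 18 of 20 chromosomes. The exceptions were chromosome 5, with 2.12 for bordering and 2.01 for other peaks, and chromosome 15, with 2.11 and 2.07. The largest differences were on chromosome 20, with 1.90 and 2.16, and on chromosome 13, with 1.94 and 2.20. Gaps and fold enrichment come from the same reads of 1 library, so this difference was not tested.

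Bordering peaks were also slightly shorter. Their median length was 1126 bp (quartiles 535 and 2744 bp), against 1259 bp (quartiles 577 and 3115 bp) for the others, and it was lower on 14 of 20 chromosomes. The mean difference within chromosomes was −146 bp (SD 250 bp, n = 20), smaller than its spread. The direction was not stable: bordering peaks were longer by 363 bp with peaks of q under 1e-05 alone and by 6 bp with a minimum gap of 100 kb. Within broad classes of peak length the fold enrichment of the bordering peaks was still the lower in its median, though lengths can differ within a class. For peaks of 1000 to 5000 bp its median was 2.18 over 570 bordering and 2.38 over 1896 other peaks. For peaks of 5000 bp or more it was 3.02 over 181 and 3.12 over 568, and for those under 1000 bp it was 1.80 over 656 and 1.82 over 1855. The difference was thus largest in the middle class and smallest under 1000 bp. Peaks with a q under 1e-05 made up 29.4% of the bordering peaks and 38.2% of the others. The shares also differed for a fold enrichment of 2 or more (49.4% and 57.8%) and of 3 or more (11.2% and 16.0%). They differed little for a q under 0.01 (74.1% and 76.3%) and for a fold enrichment of 4 or more (2.27% and 2.50%).

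**Figure D5:**
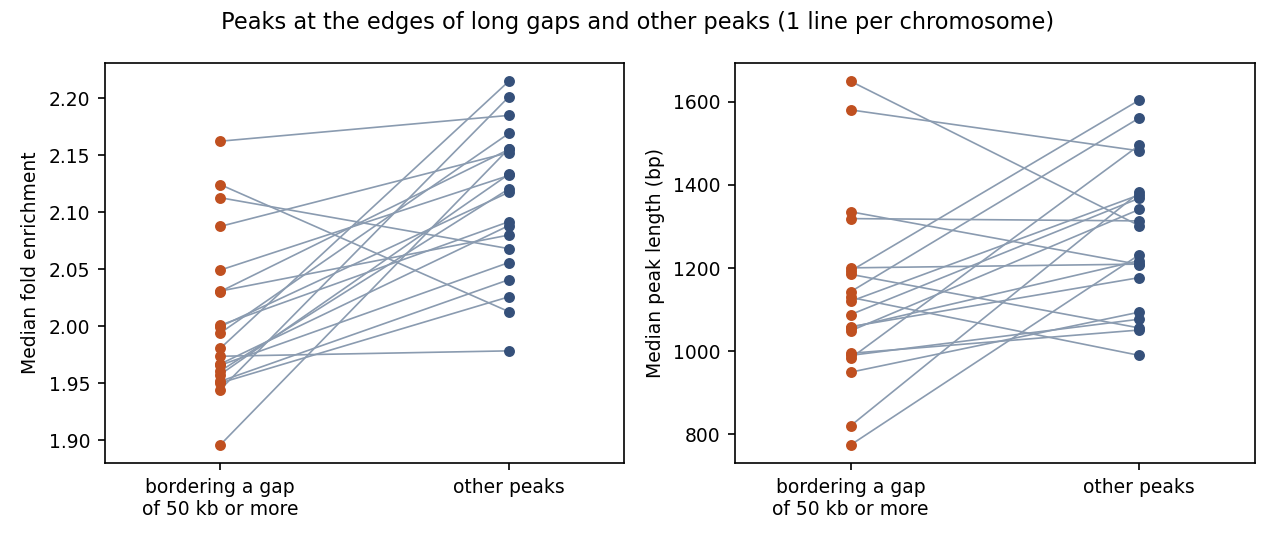
Median fold enrichment (left) and median length in bp (right) of peaks bordering gaps of 50 kb or more and of all other peaks, with 1 line per chromosome; the vertical axes do not start at 0. The bordering peaks have the lower median fold enrichment on 18 of 20 chromosomes and the lower median length on 14.

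Fold enrichment was also compared over classes of gap length. Peaks beside gaps of 25 to 50 kb had a median fold enrichment of 2.01 and those beside gaps of 50 to 100 kb and of 100 kb or more had 1.97 and 2.02. Beside shorter gaps it was 2.08 for gaps under 1 kb and for those of 1 to 5 kb, which have the most peaks, 2.15 for those of 5 to 10 kb and 2.07 for those of 10 to 25 kb. A peak has a gap on each side and can stand in 2 of these classes. Peaks beside a gap of 25 to 50 kb that also border a long gap were not left out. These values therefore cannot tell whether the lower enrichment extends below 50 kb. Among the long gaps, those of 150 kb or more had edges with a median of 2.05, compared with 1.97 for those of 50 to 75 kb. The peaks at the start and at the end of a gap were alike, with medians of 1.99 and 1.99 in fold enrichment and of 1090 and 1188 bp in length, and over the 786 gaps the Spearman correlation between the fold enrichment of both edges was 0.0073. Peaks of at least 5000 bp made up a similar share at the edges and elsewhere, with 12.9% of the bordering and 13.2% of the other peaks. In 12 gaps both edges were such peaks, in 196 at least 1 edge was, and in 172 both were under 1000 bp.

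Strong and long peaks nevertheless stood at some of the edges. The most enriched was a peak of 6633 bp on chromosome 5 (2959527–2966159), with a fold enrichment of 5.80, after which 54908 bp held no peak. The first peak of chromosome 7 (1731–8180) reached 5.43 and was followed by a gap of 90869 bp. On chromosome 4, a peak of 9040 bp from 915928 to 924967 reached 5.33 after a gap of 260366 bp, with the next peak 724 bp further on. The peak on chromosome 16 (2074913–2082977), 8065 bp long and enriched 5.25-fold, was a lone one between gaps of 81781 and 103397 bp. The fifth, on chromosome 8 (4734995–4740943), had 5.19 after a gap of 158897 bp. By length, the first peak of chromosome 19 (3614–19773) led with 16160 bp, followed by a gap of 123125 bp. Peaks of 16130 bp on chromosome 9 from 5747356, of 16066 bp on chromosome 19 from 2468498, of 15318 bp on chromosome 7 from 2075687 and of 14266 bp on chromosome 12 from 2034478 were next. No peak at an edge came near the longest of the genome, of 44827 bp, and 28 of the 1407 (1.99%) were at least 10000 bp long, compared with 3.22% of the others.

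Most peaks that bordered a long gap on 1 side only had another peak within 10 kb on the other side. For the 1234 that bordered a long gap on 1 side only and were not at the end of a chromosome's list, the distance to that peak had a median of 1397 bp (quartiles 520 and 9608 bp). It was under 1000 bp for 522 of them (42.3%) and 10 kb or more for 303 (24.6%). Gaps between peaks that border no long gap had a median of 1543 bp (quartiles 548 and 6488 bp), with 39.8% under 1000 bp and 18.3% of 10 kb or more. The 1234 peaks were chosen to have no long gap on that side, so a neighbour closer than a long gap follows from the choice. The 165 lone peaks, with a long gap on both sides, were left out. Only the distance to the next peak was measured, and its median was similar to that of the gaps between peaks that border no long gap. The spacing beyond that next peak was not measured.

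How firmly the edges are placed depends on weak peaks. In 360 of the 786 gaps at least 1 of the bordering peaks had a q of 0.01 or more, and in 59 both had. Such weak peaks made up a similar share at the edges and elsewhere, with 25.9% of the bordering and 23.7% of the other peaks. With peaks of q under 0.01 alone, 426 gaps (54.2%) kept both edges, and the number of gaps of 50 kb or more was 774. With peaks of q under 1e-05 alone, 62 (7.89%) kept both edges, since a gap merges with the next when the peak between them is left out, and the longest gap was 1438 kb on chromosome 2 (1505573–2943122). The peak list holds no read counts, so the depth behind a gap and the weakest enrichment that could have been called in it are unknown.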

How the data were processed

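H3K9me2 ChIP-seq of whole plants of line 9509 gave the 1 peak list used here. Per the methods, the authors used Trimmomatic for trimming, bowtie1 for mapping (at most 2 mismatches, 1 place in the genome), SAMtools for sorting, Picard for removing duplicates, bedtools for conversion and MACS2 for broad peak calling. Nothing read here names the genome build or says whether the input served as background, and labels and methods name different growth media. The deposited fold enrichment is a ratio over the background that MACS2 estimated. The deposited −log10 p and −log10 q are those of MACS2. The score the authors deposited repeats the −log10 q, times 10 and without decimals, and was left out.

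Peaks were sorted by start on the sequences numbered 1 to 20, which were taken as chromosomes. The gap is the next start minus the previous end, and coordinates are 1-based. Percents are of the sequence between the first and last peaks. The most covered 500 kb was found in windows of 50 kb. An island is the run of peaks between neighbouring long gaps, and a bordering peak is the last before or the first after one. Gap finding was checked on simulated data. No test was run, because there is 1 library and the regions were chosen by the same peaks. The minimum gap length, stricter peak lists, joined peaks and other definitions were varied. Regions named are the 10 longest gaps, the 3 nearest the limit on each side, the longest runs, the 5 most enriched and 5 longest bordering peaks, the 5 most isolated peaks and the extreme chromosomes. Islands and other chromosomes named were chosen after their values were seen. The members and lists were chosen with earlier results of these data known. Python 3.11.15, pandas 2.3.3, NumPy 2.4.6 and Matplotlib 3.10.9 were used.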

Additional observations from a re-analysis of the deposited data

How the results depend on the processing

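Of 70 values under an alternative, 47 kept within 1.5 times of a count or 1 SD over chromosomes of another value, 21 moved further and 2 changed sign. With a minimum of 25 kb there were 1235 gaps, in 78.0% of the sequence, with a median of 63335 bp and 396 lone peaks, and with 100 kb there were 329, in 42.5%, with a median of 149704 bp and 27 lone peaks. With 60 kb the median was 100019 bp. The percent of sequence in long gaps was 82.3% with a q under 1e-05, 76.3% with at least 2-fold enrichment and 75.3% with peaks of at least 1000 bp, and the median gap length 137282, 111265 and 107486 bp. These lists hold fewer peaks, so gaps merge by construction. They had 262, 248 and 252 lone peaks, and joining peaks across up to 1000 bp gave 268. The fold enrichment of bordering peaks stayed below that of others under every alternative run, and the difference was −0.22 with peaks of at least 1000 bp, −0.075 with a q under 1e-05 and −0.061 with a minimum of 100 kb. The difference in length was −396 bp in that list, but 363 bp with a q under 1e-05 and 6 bp with a minimum of 100 kb, so its direction depends on the list. The cause was not tested.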

Other observations

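The sequence before the first peak, which the definition of the gaps leaves out, was also long on 2 chromosomes. Chromosome 2 had 379311 bp before its first peak and chromosome 13 had 328764 bp, and both stretches would rank among the long gaps. With these added, the percent of sequence in long stretches without a peak was 66.2%, compared with 66.0% for the gaps alone. The sequence after the last peaks has no known end in the list and was not measured.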
